A study of Drosophila melanogaster with 4 samples.

Results

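The T-box genes mid (midline) and H15 sit side by side on chromosome arm 2L of Drosophila melanogaster, and the Polycomb regions over their locus were described in 2 ChIP-seq libraries. Chromatin came from wild-type Oregon-R embryos collected 14 to 16 h into development and fixed with 1.8% formaldehyde, and was precipitated with an antibody against Polycomb (Pc). The series also held 2 input libraries of genomic DNA, which have no values here. All groups share strain, genotype and stage, whole embryos were used, and whether the replicates are separate embryo collections is not given in the labels. Members were all deposited regions of significant enrichment that overlapped 2L from 5.36 to 5.53 Mb on FlyBase r5. The rule gave 4 of the 1189 regions of replicate 1 and 14 of the 1405 regions of replicate 2. The window was chosen by the positions, widths and scores of regions in these same lists, so positions, widths and scores at the locus are given as a description, without a test.

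Polycomb, a subunit of Polycomb repressive complex 1, binds through its chromodomain to histone H3 that carries the trimethyl mark of Polycomb repressive complex 2, and many developmental regulators lie in broad Polycomb domains in the cells that keep them silent. T-box genes encode transcription factors that share a DNA-binding domain, the T-box. The fly genes mid and H15 are the counterparts of vertebrate Tbx20, act together in the specification of heart cells in the dorsal vessel and in ventral patterning of the leg and epidermis, and mid also acts in the embryonic nervous system. In whole embryos, cells that express a gene and cells that keep it silent are mixed, so a region can come from some of the cells only.

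The gene pair lies in a neighbourhood of non-coding genes. The files hold no gene names, and the only gene table used is of Release 6. It served for names and order only, and neither gene was placed within a single region. Between H15 and mid it lists 0 protein-coding genes. The 5 genes between them are 4 long non-coding RNA genes (CR43713, CR43714, CR43715 and CR31647) and the snoRNA gene Me28S-A2486, a guide for modification of ribosomal RNA. On the outer side of H15 come the long non-coding RNA genes CR44745 and CR42850 and then nompC, which encodes a mechanosensory channel. On the outer side of mid come the long non-coding RNA gene CR45287 and then the protein-coding gene CG14020. The order is therefore nompC, H15, mid and CG14020 among protein-coding genes, with 8 non-coding genes in the spaces. Of the 8 fly T-box genes looked up (mid, H15, bi, Doc1, Doc2, Doc3, org-1 and byn), the only other pair with 0 protein-coding genes between its members was Doc1 and Doc2 on 3L.

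Polycomb covered most of the locus in both libraries, in a stretch with nearly the same outer limits. The regions ran from 5359511 to 5517573 in replicate 1, a span of 158.1 kb. In replicate 2 they ran from 5360577 to 5517293, a span of 156.7 kb. The left limits differed by 1066 bases and the right limits by 280 bases. Regions filled 96.1% of the span in replicate 1 and 90.2% in replicate 2. Of the whole 170.0 kb window, 89.0% was covered in replicate 1 and 83.2% in replicate 2, against 7.33% and 7.23% of the arm 2L as a whole. Other broad blocks were filled much alike. Over the 53 blocks of 50 kb or more described further on, the median covered share was 92.6% in replicate 1 and 86.9% in replicate 2. The block of mid and H15 had 96.1% and 89.4%, with 15 blocks higher in replicate 1 and 21 in replicate 2. The locus alone held 9.00% of all Polycomb-covered bases of 2L in replicate 1 and 8.49% in replicate 2. Within the window the sequence to the right of the last region was uncovered in both libraries, over 12.4 kb in replicate 1 and 12.7 kb in replicate 2.

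The same span was listed as 4 regions in replicate 1, 3 of them of 10 kb or more, and as 14 regions in replicate 2, 2 of them of that width. The 4 regions of replicate 1 measured 6.19, 106.4, 15.7 and 23.6 kb from left to right. In replicate 2 the widest region measured 83.6 kb, the last on the right 11.6 kb, and the other 12 were under 10 kb, the narrowest being 1726 bases. The widest region thus took 70.0% of the covered bases of the locus in replicate 1 and 59.1% in replicate 2. By width it ranked 3rd among all regions of replicate 1 and 4th among those of replicate 2. On 2L it was the widest of 246 regions in replicate 1 and ranked 2nd of 285 in replicate 2.

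**Figure D1:**
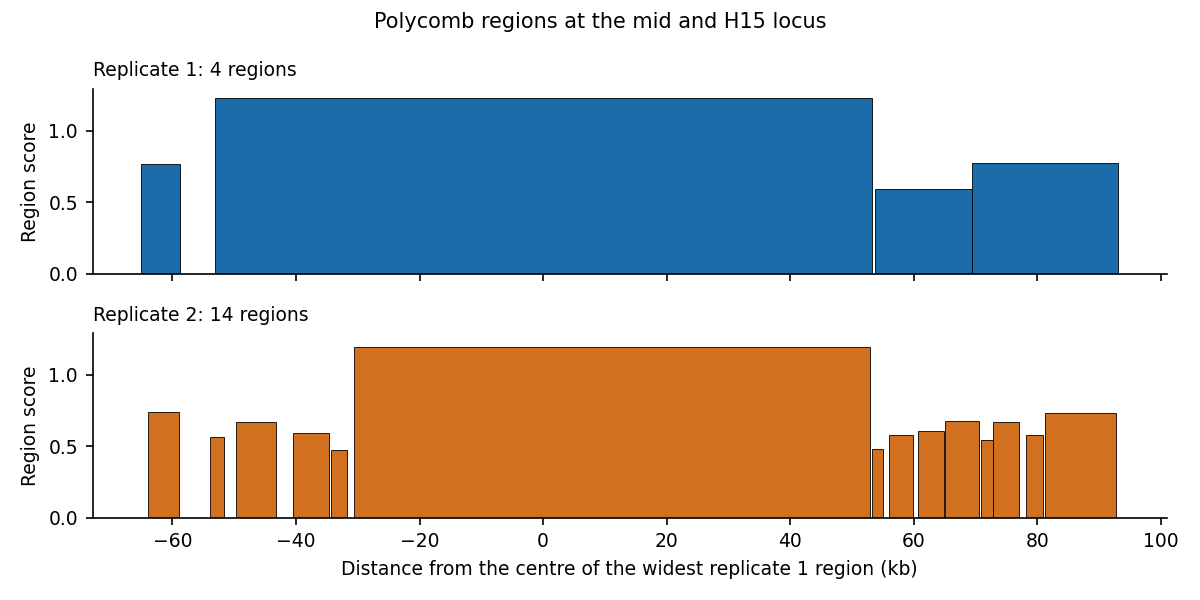
Deposited Polycomb regions at the mid and H15 locus in replicate 1 (top, 4 regions) and replicate 2 (bottom, 14 regions), each drawn at its true width along the horizontal axis (distance in kb from the centre of the widest replicate 1 region) with its score as height. Both libraries hold a wide high-scoring region in the middle (scores 1.23 and 1.20). Next to its widest region, replicate 2 is divided into shorter regions on both sides. Replicate 1 has there the left part of its widest region on the left and longer regions on the right.

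A central stretch was continuous in both libraries. The widest region of replicate 2, from 5393919 to 5477498, lay wholly inside the widest region of replicate 1, from 5371333 to 5477686. Their right edges were 188 bases apart, while their left edges were 22.6 kb apart. All 83.6 kb of this core were therefore covered in both lists, with no gap in either. The region that holds it scored 1.23 in replicate 1, where it also takes in most of the left flank, and 1.20 in replicate 2. The score is the authors' own value per region, on a scale not given in the sources used here, and is used only to rank regions within a list.

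Outside the core, replicate 1 covered more than replicate 2. The limits of the core are those of a replicate 2 region inside a replicate 1 region, so its full coverage in both lists follows from how it was set. By the same choice no gap of replicate 2 can lie in the core, so the place of the difference is partly set in advance. Over the core and both flanks together, replicate 1 covered 99.1% and replicate 2 covered 92.8%. On the left flank, 23.3 kb from 5370589 to 5393918, replicate 1 covered 96.8% with the left part of its widest region. Replicate 2 covered 73.5% of it with 4 regions, of 2272, 6387, 5877 and 2600 bases. On the right flank, 40.1 kb from 5477499 to 5517573, replicate 1 covered 98.6% and replicate 2 covered 89.1%. There replicate 2 listed 8 regions between 1726 bases and 11.6 kb. Coverage was thus lower in replicate 2 on both flanks, by 23.4 percentage points on the left and 9.44 on the right. With 1 value per library this difference has no error estimate.

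**Figure D2:**
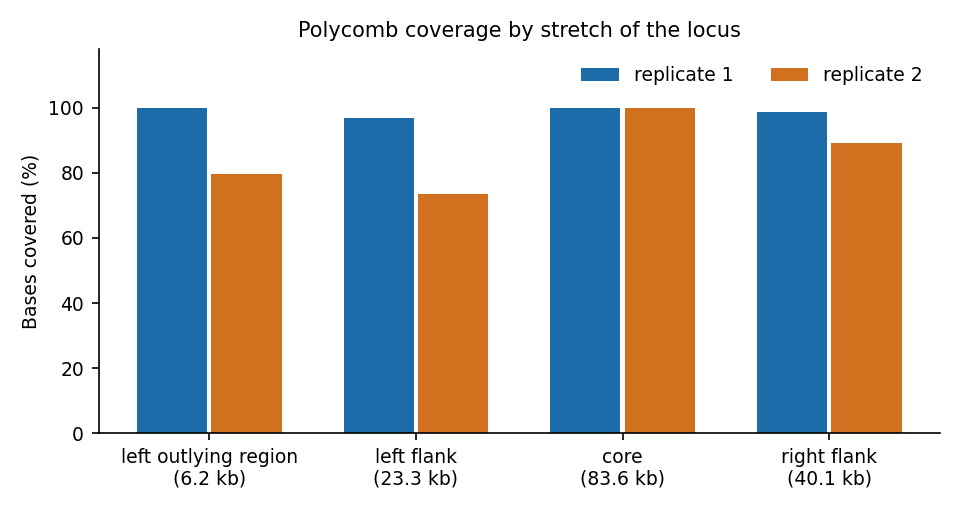
Share of bases covered by Polycomb regions (vertical axis, %) in 4 stretches of the mid and H15 locus, for replicate 1 and replicate 2. Both libraries cover 100% of the core by the way it was set, and no gap of replicate 2 can lie in it. Replicate 2 is lower in the other stretches, at 79.8% in the outlying region, 73.5% on the left flank and 89.1% on the right flank. The outlying stretch has the limits of the replicate 1 region, so replicate 1 covers 100% of it by the way it was set. Stretches were set from the edges of the regions themselves.

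A short region stood apart on the far left in both libraries. Its limits were 5359511 and 5365696 in replicate 1 (score 0.766) and 5360577 and 5365512 in replicate 2 (score 0.743). Replicate 2 covered 79.8% of the replicate 1 region, and the replicate 2 region lay wholly within it. A gap of 5636 bases in replicate 1 and 5076 bases in replicate 2 separated it from the rest, the widest gap of the locus in each list. Of that space, 4892 bases were uncovered in both libraries, from 5365697 to 5370588. This region is also the one that crosses the left edge of the window in replicate 1, starting 489 bases outside it.

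Most gaps of replicate 2, though not its widest, fell inside regions of replicate 1. Replicate 2 had 13 gaps at the locus, from 19 to 5076 bases with a median of 846 bases, and 11 of them lay wholly within a replicate 1 region. Replicate 1 covered 99.1% of the core and both flanks, so most gaps there had to fall inside its regions. By length, replicate 1 covered 67.8% of the gap bases, and 3.62% of the widest gap. The widest of the 11 ran from 5381207 to 5383992 on the left flank (2786 bases). Replicate 1 had 3 gaps, and 1 of them, of 84 bases, lay wholly within a replicate 2 region. Only the space beside the outlying region and 51 bases at the right edge of the core, from 5477687 to 5477737, were uncovered in both lists. That small shared gap puts a break at the right end of the core in both libraries, between 5477499 and 5477737 in replicate 2 and between 5477687 and 5478179 in replicate 1.

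Base by base, the lists shared most of what they covered at the locus. In the window 140.1 kb were covered in both libraries, 11.3 kb in replicate 1 only and 1.27 kb in replicate 2 only. Replicate 2 therefore covered 92.6% of the replicate 1 bases, and replicate 1 covered 99.1% of the replicate 2 bases. The Jaccard index, the bases in both lists divided by the bases in either, was 91.8%. It was 69.1% over the whole of 2L and 71.4% over X, 2L, 2R, 3L and 3R. Those values include all narrow regions. Over the 53 blocks of 50 kb or more described further on, the median was 88.3%, and 18 of them were above the 91.5% of the block of mid and H15. The index was 70.3% on the left flank and 87.9% on the right flank.

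Every region of the locus met a region in the other list. All 4 regions of replicate 1 overlapped replicate 2 by at least 1 base, against 64.7% of all regions of that list. All 14 regions of replicate 2 overlapped replicate 1, against 60.7% of that list. Regions filled 96.1% of the span in replicate 1 and 90.2% in replicate 2. An overlap of 1 base was therefore nearly set in advance for every region of the locus, narrow ones included. Regions of 10 kb or more are found in the other list in 100% of cases in both directions, so the count says nothing particular for the 3 such regions of replicate 1 and the 2 of replicate 2. The 14 regions share their targets, since 11 of them lay wholly within a replicate 1 region. The least covered was the region from 5370589 to 5372860, at 67.3%. When 50% of both regions had to overlap, 2 of the 4 regions of replicate 1 were found, against 43.5% of all regions of that list. In replicate 2 it was 2 of the 14, against 36.8% of all regions of that list. At this setting a replicate 1 region can hardly match more than 1 replicate 2 region. With 4 regions against 14, a low share in replicate 2 was therefore set in advance by the division of the locus.

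The widest region had the highest score of the locus in both libraries. In replicate 1 the regions scored 0.766, 1.23, 0.590 and 0.773 from left to right, all above the median of 0.545 over that list. In replicate 2 the widest region scored 1.20 and the other 13 regions between 0.474 and 0.743. There 6 regions scored above the list median of 0.605, 1 was the median region itself and 7 were below it. The lowest of replicate 2 lay directly beside its widest region, from 5390172 to 5392771 (0.474) and from 5477738 to 5479463 (0.482). Wider regions had higher scores among the 14 regions of replicate 2 (Spearman's rho 0.86), as they did over the whole list (rho 0.65). These are descriptions of 1 library each.

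For its width, the locus ranked low by score, a description without a test. The widest region stood at percentile 90.9 by score in both lists, ranking 109th in replicate 1 and 129th in replicate 2. Among regions of 10 kb or more it was only near the middle, ranking 99th of 207 and 103rd of 210. Set beside the 20 regions nearest to it in width, which ran from 52.6 to 113.7 kb in replicate 1 and from 46.6 to 106.4 kb in replicate 2, it scored above 2 of 20 in each library. Of those neighbours, the lowest scored 1.09 and 1.16 and the highest 2.14 and 2.43.

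On the right flank the regions of both libraries scored below the median of their 20 nearest in width, apart from 5497381 to 5501504 in replicate 2. Those of replicate 1 stood lower among their nearest, though these were wider regions than the ones used for replicate 2. The replicate 1 region from 5478180 to 5493854 (15.7 kb, score 0.590) scored above 1 of the 20 nearest in width, whose median was 1.09. The one from 5493939 to 5517573 (23.6 kb, 0.773) scored above 0 of 20, whose scores ran from 0.867 to 1.75. In replicate 2 the 8 regions of the right flank scored above 3 to 14 of their 20 nearest, and the last of them (11.6 kb, 0.731) above 5, whose median was 0.835. The lowest counts of replicate 2 were on the left flank, above 1 of 20 for the region from 5383993 to 5389869 and above 0 of 20 for that from 5390172 to 5392771. All 4 regions of replicate 1 and 12 of the 14 of replicate 2 scored below the median of their 20 nearest in width. The exceptions in replicate 2 were the outlying region on the left, above 15 of 20, and the region from 5497381 to 5501504, above 14 of 20.

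**Figure D3:**
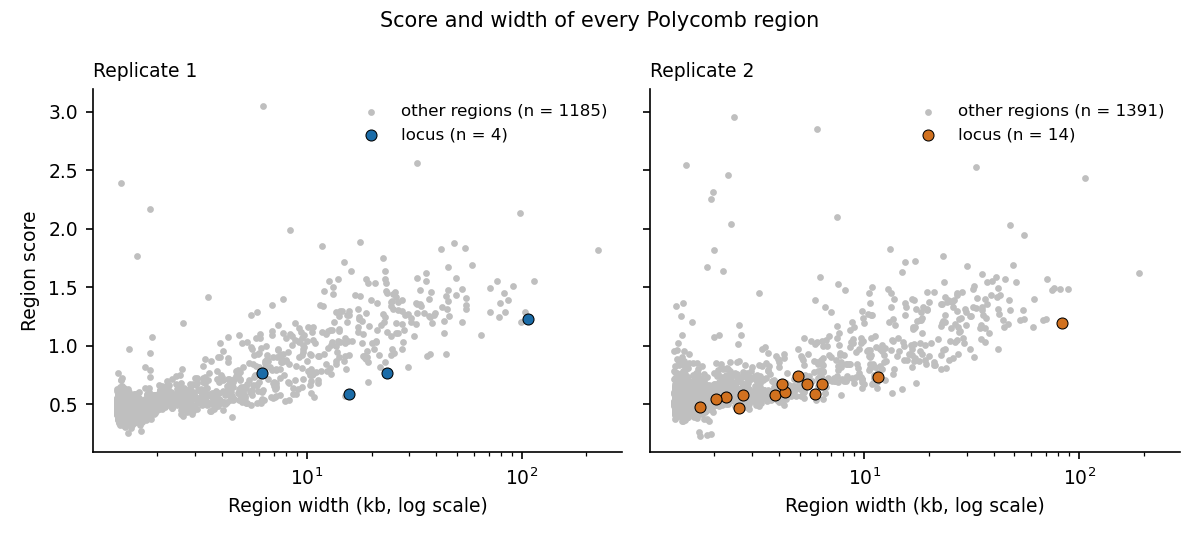
Score (vertical axis, authors' units) against width (horizontal axis, kb, log scale) of every Polycomb region in replicate 1 (left) and replicate 2 (right), with the regions of the mid and H15 locus in colour. The 4 locus regions of replicate 1 and 12 of the 14 of replicate 2 score below the median of the 20 regions nearest in width.

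The long replicate 1 regions of the locus were more divided than most regions of 10 kb or more, a set not matched for width. The widest was met by 5 regions of replicate 2, and the 2 on the right flank by 4 and 5. Over the 207 regions of 10 kb or more in replicate 1 the median was 1, and 116 were met by a single region. Only 1 of the 207 was met by more than 5. For each locus region met by 5, 5 others were met by as many, the other such locus region among them. For the locus region met by 4, 9 others were met by as many. Met by more were 7, both locus regions met by 5 among them. Replicate 2 still covered 94.0%, 87.2% and 91.0% of these 3 regions, against a median of 97.3%. In the other direction the core region and the last region of replicate 2 were each met by 1 replicate 1 region and covered to 100%. That was common, since 141 of the 210 regions of 10 kb or more in replicate 2 were met by 1. Their median covered share was 98.9%, and 139 of the 210 were covered to less than 100%.

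Seen as a block, the locus was broad, far from other blocks and divided unequally by the libraries. Joining regions of both lists that lay under 5 kb apart gave 53 blocks of 50 kb or more on X, 2L, 2R, 3L and 3R, of which the block of mid and H15 ranked 9th by span and 3rd on 2L. It held 3.5 times as many regions in replicate 2 as in replicate 1, against a median ratio of 1 over the 53 blocks. Only 1 block had a higher ratio, a block of X from 5423001 to 5506323 with 1 region in replicate 1 and 10 in replicate 2. More regions in replicate 2 were seen in 26 blocks and fewer in 20, and over the whole lists the ratio was 1.18. The outlying region on the left joins the block of mid and H15 across 4892 bases, just under the joining distance. At a slightly shorter distance it would be a block of its own, that close to the rest. The rest measures 147.0 kb, with 3 regions in replicate 1 and 13 in replicate 2.

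**Figure D4:**
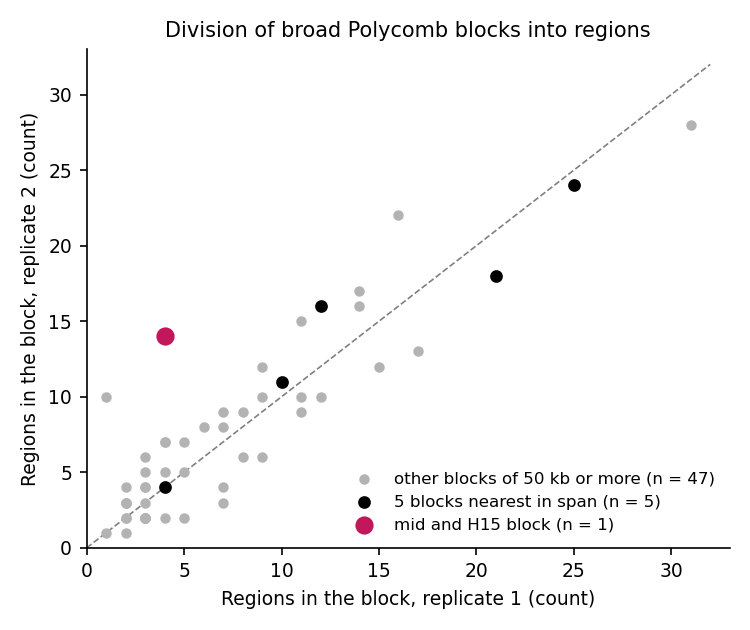
Number of regions that make up each of 53 Polycomb blocks of 50 kb or more in replicate 1 (horizontal axis) and replicate 2 (vertical axis), with equal numbers on the dashed line. The block of mid and H15, at 4 and 14 regions, lies far above the line, while the 5 blocks nearest to it in span (black) lie close to it.

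The 5 blocks nearest in span were divided much alike in both libraries. They were 3L 12549584 to 12725768, 2L 11327792 to 11496216, 3R 6338688 to 6500693, X 4265176 to 4425349 and 2L 12566046 to 12697299. Their ratios of replicate 2 to replicate 1 regions ran from 0.857 to 1.33. The nearest in span on 2L, from 11327792 to 11496216, was made of 25 regions in replicate 1 and 24 in replicate 2, none wider than 26.4 kb. The 3L block was instead made of 4 regions in each list. In none of the 5 did a single region reach the 106.4 kb of the mid and H15 locus in replicate 1, the widest there being 86.2 kb. The highest score in the block of mid and H15 was the lowest of the 6 in replicate 1, where the others ran from 1.27 to 1.51, and lay between theirs in replicate 2, where the lowest of the others was 1.06.

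No other region was listed close to the locus in either library. To the right, the next region began at 5616607 in replicate 1 and 5616498 in replicate 2, after 99.0 and 99.2 kb. That region was present in both lists, with widths of 2330 and 2548 bases and scores of 0.583 and 0.626. To the left, the next region was 269.7 kb away in replicate 1 (1310 bases wide, from 5088551 to 5089860) and 146.5 kb away in replicate 2 (1405 bases wide, from 5212679 to 5214083). The distance to the nearest other block was 98.9 kb, against a median of 12.9 kb over the 53 blocks, of which 3 were farther from their neighbours. For the 5 blocks of like span it ran from 5.23 to 22.4 kb.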

How the data were processed

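Polycomb ChIP-seq regions were analysed from 2 ChIP libraries, whose groups and replicate numbers were read from the sample titles. Each ChIP library had its own deposited list of regions of significant enrichment with a score per region, placed on FlyBase r5 per the file headers. The submitters' processing notes name Bowtie 0.12.7. The region caller, its threshold and the scale of the score are not stated in these sources. The experiment number in each ChIP source name matches the other library's file, and the recorded link of sample and file was used. Exchanging the lists would swap the replicate names. Depth is unknown, and the input libraries have no values here.

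Regions overlapping the window by at least 1 base were kept whole, except for shares of the window. Overlap was counted base by base in Python 3.11.15 with numpy 2.4.6, scipy 1.17.1 and pandas 2.3.3, and tested on simulated data (20 pairs of made-up lists). The lists held 0 regions with the same start and end. Blocks joined regions of both lists under 5 kb apart. The 5 blocks nearest in span were named. The members, window and comparisons were chosen with earlier results of these data known. Stretches of the locus, the division of broad regions and blocks of 50 kb or more were chosen after the values were seen. Alternatives changed the window, the joining distance, the overlap required, the score filter and the regions ranked against. A planned comparison of proteins and promoters was not made, since no sequence was used here.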

Additional observations from a re-analysis of the deposited data

How the results depend on the processing

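Of 33 alternative values, 9 stayed close to the reported one and 24 moved. Close meant within 1.5 times for counts, within the SD of the libraries for shares and ranks, and within the exact binomial 95% interval over bases for the Jaccard index (91.6 to 91.9%). Neighbouring bases are not independent, so that interval is narrow and all 3 alternatives left it. The SD for score percentiles was only 0.0146, since the libraries were nearly equal. All alternative percentiles therefore counted as moved, even 91.0 against 90.9 in replicate 1. The outer limits of the locus were not among the values recomputed. Widening the window by 50 kb on both sides added 0 regions, so the covered share became 56.2% in replicate 1 and 52.4% in replicate 2, and the Jaccard index 91.5%. With the lower-scoring 50% of each list left out, 7 regions stayed in replicate 2, all 7 found in replicate 1, with a covered share of 70.8% there and a Jaccard index of 79.4%. Merging regions under 1 kb apart left 2 regions in replicate 1 and 7 in replicate 2, with a Jaccard index of 93.6%. Merging under 5 kb left 2 in each list, so the difference between 4 and 14 regions ended. The widest region then ranked 8th and 6th by width. When 50% of both regions had to overlap, 2 of 4 and 2 of 14 regions were found in the other list. By score, the widest region stood at percentile 93.7 and 94.2 among regions on 2L, where it ranked 1st and 2nd by width. Among regions of 10 kb or more it stood at 52.4 and 51.2, and on the 5 large arms at 91.0 and 91.7. No paired analysis was possible because no values were at hand for the inputs, the only libraries that share replicate numbers with the ChIP. Overlaps need both libraries, and every other value is given for each library, so none was recomputed without a replicate. Depth was unknown, so a gap in one list cannot be told apart from enrichment under its threshold.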
